A study of Mus musculus with 4 samples.

Results

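Actg2, Nefh, Tg, Ddc, Tff1 and Agr3 were followed in sorted mouse thymic regulatory T (Treg) cells. They are 6 of the 27998 genes of the count table, and their transcripts are textbook products of tissues other than lymphocytes. The genes were chosen by measured values of these same cells, namely their level and share of positive cells in each library, their UMIs per positive cell and their co-detection, and the genes raised with Actg2. All of these are therefore given as descriptions, with no test. Single-cell 3' RNA profiles were made with Chromium version 2 chemistry, in which a unique molecular identifier (UMI) counts 1 captured transcript. The mice were 3 weeks old, on a B6 background, and each carried a Rag2-Gfp and a Foxp3-Thy1a reporter. There was 1 sample of each of 4 genotypes, which were IL2 o/o, IL15 o/o, IL2 wt/wt and IL15 wt/wt. CD4+CD8-Thy1.1+GFP+ cells were sorted, which takes cells with the Foxp3 reporter that still hold the green protein of recent receptor gene rearrangement. Cell barcodes end in a suffix, 1 to 4, called libraries 1 to 4 here. No label ties a suffix to a genotype, so values are given library by library, with no comparison of a knockout with its wild type.

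The thymus is where many tissue-type genes are switched on outside their tissues. Medullary thymic epithelial cells, in part under the regulator Aire, make proteins of gut, nerve, gland and muscle, and developing T cells that recognise these are deleted or become Treg cells. Actg2 encodes the gamma actin of visceral smooth muscle. Nefh encodes the heavy chain of neurofilaments, the cables of large axons. Tg encodes thyroglobulin, the protein from which thyroid hormone is cut. Ddc encodes the decarboxylase that makes dopamine and serotonin, Tff1 a trefoil peptide of gastric mucus, and Agr3 a protein of the disulphide isomerase family found in secretory and ciliated epithelium.

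Whether a read of such a gene could come from a relative was looked at first, since the cytoplasmic actins Actb and Actg1 are abundant in every T cell. The last 90 coding bases of 4 actins show how Actg2 differs from them. They are shown in the 5′ to 3′ direction of the transcript taken from GENCODE M21 transcripts on GRCm38, and capitals mark the bases that differ from Actg2.
Actg2: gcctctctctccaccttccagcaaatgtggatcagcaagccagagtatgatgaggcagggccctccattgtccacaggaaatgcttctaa
Acta2: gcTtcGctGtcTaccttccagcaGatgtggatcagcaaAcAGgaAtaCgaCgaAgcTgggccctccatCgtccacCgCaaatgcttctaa
Actg1: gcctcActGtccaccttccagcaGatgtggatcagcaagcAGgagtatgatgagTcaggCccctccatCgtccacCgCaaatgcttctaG
Actb: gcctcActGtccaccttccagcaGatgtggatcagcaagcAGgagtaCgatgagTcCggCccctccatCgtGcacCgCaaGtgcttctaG
In this stretch Acta2, the actin of vascular smooth muscle, differed from Actg2 at 16 bases, Actg1 at 11 and Actb at 15. Over the whole coding sequence the identity with Actg2 was 84.2% for Acta2, 82.6% for Actg1 and 82.8% for Actb. None of the 451 windows of 50 bases in the last 500 bases of the Actg2 transcript occurred in a transcript of another gene, and the same held for the other 5 genes. Actb stood at 5559 CPM in Actg2-positive cells, against 5549 CPM in Actg2-negative cells, where CPM is UMIs scaled to a total of 1000000. Actg1 stood at 3817 CPM in Actg2-positive cells, against 2726 CPM in Actg2-negative cells, and at matched depth the log2 ratios were 0.07 and 0.26, neither of them a called change.

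Each gene has its own place in the genome, with coordinates of GRCm38. Actg2 lies at chr6:83512905-83536265 and Nefh at chr11:4938754-4948064, both on the minus strand. Tg lies at chr15:66670753-66850721 on the plus strand and Ddc at chr11:11814101-11898144 on the minus strand. Tff1 lies at chr17:31161395-31165277 on the minus strand and Agr3 at chr12:35925620-35949736 on the plus strand. Tg spans Sla, a gene of a lymphocyte adaptor protein on the opposite strand, with which it shares 0 exonic bases, and Gm17140, an antisense gene with 112 shared exonic bases and 0 UMIs. Tff1 shares 221 exonic bases with the antisense gene Gm15318, which had 0 UMIs, and Ddc shares 0 with the antisense 1700042O10Rik, which had 22 UMIs and met Ddc in 1 cell. Sla was even across libraries, at 80.6, 77.6, 81.7 and 75.3 CPM in libraries 1 to 4, and its log2 ratio between Tg-positive and Tg-negative cells was -0.30. No source used here says whether the counting used strand, so reads of Tg, Ddc and Tff1 and of their antisense neighbours could not be told apart by strand.

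The 4 libraries held 1609, 2452, 2037 and 2175 cells in the order 1 to 4, with medians of 3857, 3640, 2501 and 3019 UMIs per cell. Library 3 stood apart before any of the 6 genes was considered. It was the shallowest, and it held 5 of the 451 cells of the proliferating-like cluster. Leiden clustering, made without the 6 genes, the tissue lists or the cell cycle lists, gave 8 clusters. Cluster 1 was Treg identity- and IL-2 and STAT5-like, cluster 2 late maturation- and interferon-like, cluster 3 TCR and NF-kB signalled-like, cluster 6 proliferating-like, cluster 7 double-positive thymocyte-like and cluster 8 interferon response-like. Cluster 5, led by S100a6, Lgals3 and Ccl5, met no marker class and stays unnamed. So does cluster 4, led by the haemoglobin genes Hba-a1, Hbb-bs, Hba-a2 and Hbb-bt, whose median was 1586 UMIs. Of its 263 cells, 151 came from library 3. The list of 5 erythroid genes summed to 0, 6.21, 1877 and 1.32 CPM in libraries 1 to 4. There were 27 barcodes found in more than 1 library, in 54 cells, and none of them held 1 of the 6 transcripts in more than 1 of its cells. Of the 54 cells, 5 were Actg2-positive, 2 Nefh-positive and 2 Tg-positive, too few to show whether transcripts passed between libraries.

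Actg2 was the most abundant of the 6 by UMIs and the most uneven across libraries. It reached 56.4 CPM in library 1, 63.9 in library 2, 5.42 in library 3 and 47.7 in library 4. Library 3 was far below the other libraries, and the 95% Poisson interval of library 3 (3.68 to 7.70 CPM) did not touch theirs, of which the lowest began at 43.1 CPM. Among the others, the intervals of libraries 1 and 2 overlapped, as did those of libraries 1 and 4. At least 1 Actg2 UMI was found in 8.33%, 9.75%, 0.687% and 6.21% of the cells of libraries 1 to 4, which are 134, 239, 14 and 135 cells. These intervals cover counting error only and are too narrow where a few cells hold many UMIs. In library 3, for example, 71.0% of its 31 Actg2 UMIs lay in 5 cells. There are no replicate libraries of known genotype, so a difference between libraries has no replicate check.

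The low level in library 3 held when depth and cluster makeup were made alike. With every cell thinned to 1811 UMIs, Actg2 was found in 4.496%, 5.999%, 0.308% and 3.84% of the cells of libraries 1 to 4. Shallower cells were left out, and 1557, 2317, 1622 and 1951 cells were kept. With clusters 1 to 5 given the same weight in each library, Actg2 came to 51.7, 62.8, 8.24 and 43.1 CPM. With 0.5 CPM added to both, the highest level was 7.24-fold the lowest. That spread ranked 11 among the 8071 genes with 200 or more UMIs. Of those genes, 21.9% spread at least 1.5-fold and 0.347% at least 5-fold by the same measure. The ranking was led by 4 haemoglobin genes, high in library 3, and the genes between them and Actg2 were Lgals3, Birc5, Ccnb2, Socs2, B9d1 and Rasip1, each lowest in library 3.

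Nefh did not share this pattern. Its level was 9.25, 11.6, 7.17 and 8.98 CPM in libraries 1 to 4, and the 4 intervals overlapped. It was found in 3.85%, 4.20%, 1.52% and 2.80% of cells. With cells thinned to 1811 UMIs the shares were 1.28%, 1.08%, 0.986% and 1.33%, and their intervals overlapped. At equal cluster makeup the order turned round, with 7.58, 9.41, 13.4 and 9.05 CPM, so that library 3 became the highest.

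Tg lay at 7.60, 6.56, 4.72 and 10.4 CPM in libraries 1 to 4, highest in library 4, whose interval lay above those of libraries 2 and 3. It was found in 2.49%, 2.32%, 0.835% and 2.48% of cells. Ddc lay at 4.94, 4.52, 1.40 and 4.43 CPM, and library 3 was again lowest, with 8 UMIs in 8 cells. The interval of Ddc in library 3 ended at 2.76 CPM, below the start of those of the other libraries, the lowest of which began at 3.12 CPM. Thinned to equal depth, only 4, 15, 4 and 12 cells held Ddc, and its share was as low in library 1 (0.257%) as in library 3 (0.247%).

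The epithelial genes were the rarest. Tff1 lay at 4.56, 2.04, 2.97 and 3.11 CPM in libraries 1 to 4, in 11, 10, 2 and 11 cells. Its level in library 3 rests on 1 cell, which held 16 of the 17 UMIs. Agr3 lay at 3.30, 1.69, 1.40 and 2.40 CPM, in 14, 12, 8 and 13 cells, and its 4 intervals overlapped. Only Actg2, Nefh and Tg reached the 200 UMIs that a gene needed below to be called in a comparison or correlated with others. Cells with Ddc, Tff1 or Agr3 were still compared with cells without them. Ddc had 135 UMIs, Tff1 102 and Agr3 73.

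**Figure D1:**
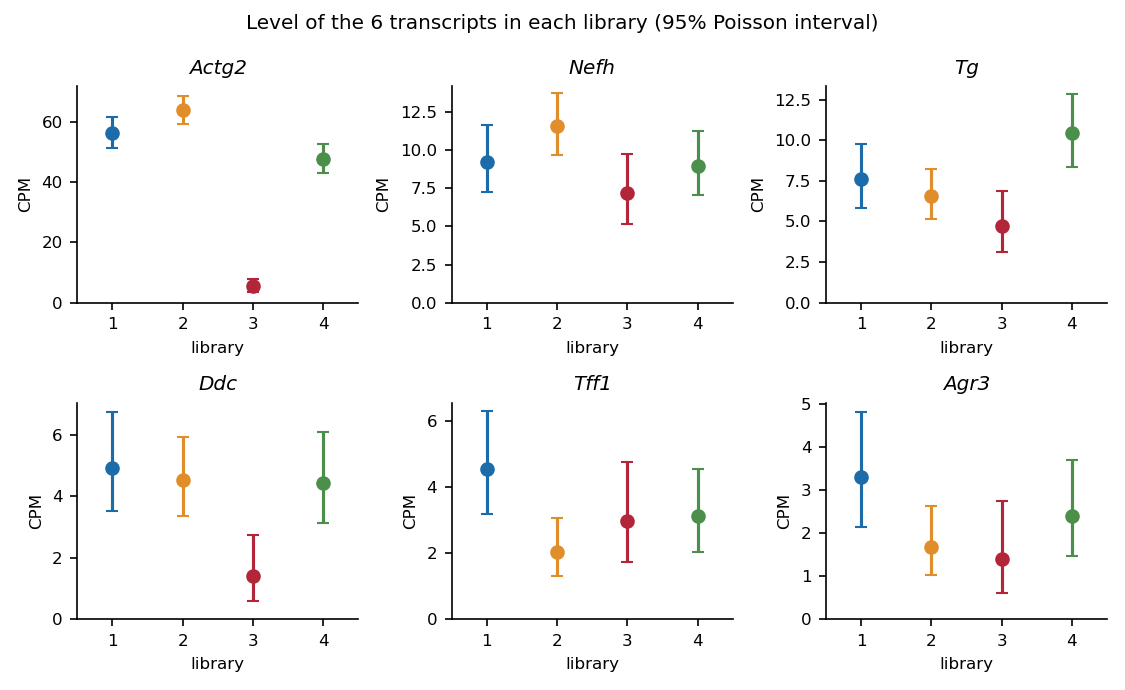
Level of each of the 6 transcripts (CPM, vertical axes from 0 and scaled separately) in libraries 1 to 4, with 95% Poisson intervals. Actg2 sits at 5.42 CPM in library 3 against 47.7 to 63.9 CPM in the other libraries, while the 4 intervals of Nefh overlap.

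Cells that held a transcript differed in how much of it they held. An Actg2-positive cell had 3.06 Actg2 UMIs on average, up to 22, and 200 of the 522 positive cells had 3 or more. Tff1 had a similar average, 3.00 UMIs per positive cell, up to 16, but few cells made it up. Of its 34 cells, 20 had 1 UMI and 8 had 3 or more. The top 5 cells held 52.9% of the Tff1 UMIs, against 5.64% for Actg2. Nefh was mostly a lone count, with 1.25 UMIs per positive cell, a single cell at 5 UMIs and 208 of 257 positive cells at 1 UMI. Tg (1.48), Agr3 (1.55) and Ddc (1.21) lay between or near these.

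Had the Actg2 UMIs fallen on cells only in proportion to each cell's depth within its library, about 1346 cells would have held them, against the 522 counted. For Tff1 the same figures were 101 and 34 cells, for Tg 242 and 168, and for Nefh 310 and 257. The UMIs of Actg2 and Tff1 were thus packed into fewer cells than depth alone gives. At 2 or more UMIs, 3.55% of all cells were Actg2-positive, against 6.31% at 1 or more.

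**Figure D2:**
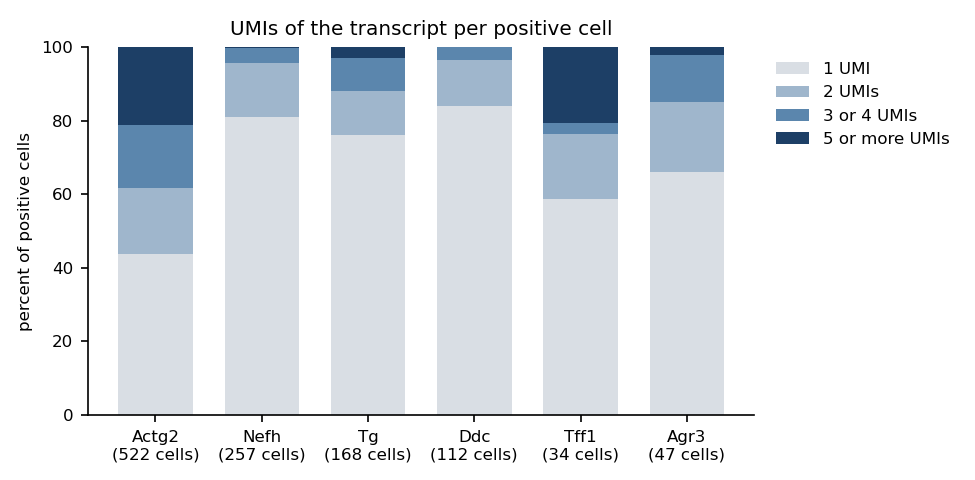
Percent of positive cells (vertical axis) that held 1, 2, 3 or 4, or 5 or more UMIs of each transcript, over all libraries. Of the 522 Actg2-positive cells, 111 held 5 or more UMIs, against 1 of the 257 Nefh-positive cells.

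All 6 were found more often in deep cells. With the cells of each library split into 4 equal groups by depth, Actg2 reached 79.96 CPM in the deepest group, against 8.12 CPM in the shallowest. CPM already divides by depth, and clusters 3 and 6 had the highest median depths, 5274 and 9621 UMIs. The corresponding levels were 16 and 4.06 CPM for Nefh, 12.8 and 2.03 CPM for Tg, and 6.52 and 0.254 CPM for Ddc. For this reason the ratios of positive to negative cells below, and the numbers called given, were made within 10 depth bins of each library. Plain CPM, summed CPM of lists and percentages of cells are pooled over all positive or all negative cells. They are not matched on library or depth.

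By cluster, Actg2 was high in clusters 3, 5 and 6 and nearly missing from cluster 2. Its level was 16.7, 1.04, 96.5 and 33.0 CPM in clusters 1 to 4 and 75.9, 70.9, 2.72 and 44.0 CPM in clusters 5 to 8. In cluster 2, the largest, 7 of 2637 cells were positive (0.265%). This was the lowest share of any cluster, and the part of free RNA in the droplets was not tested. Median depth was 2412 UMIs per cell in cluster 2 and 3135 in cluster 5, where 9.90% of cells were positive. The double-positive thymocyte-like cluster 7, at a median of 2362 UMIs, had 1 positive cell of 108.

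The low level of library 3 was present within clusters 3 and 5. In cluster 3, 20.8%, 17.8%, 2.04% and 13.6% of the cells of libraries 1 to 4 were Actg2-positive. In cluster 5, 30 of 215, 54 of 270, 11 of 481 and 27 of 266 cells were positive. In cluster 1, 0 of 74 cells of library 3 were positive, with an exact binomial interval up to 4.86%, against 3.21%, 4.17% and 4.10% in libraries 1, 2 and 4, so no difference was detectable there at this depth. The highest cluster was cluster 5 in libraries 1 and 2, at 106 and 159 CPM, and cluster 3 in libraries 3 and 4, at 23.7 and 101 CPM.

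Nefh was concentrated in cluster 3, which held 59.7% of its UMIs and 15.8% of all cells. It reached 24.6 CPM there, 13.1 CPM in the proliferating-like cluster 6 and 4.02 CPM in cluster 5. Within cluster 3 it was found in 10.6%, 11.9%, 10.2% and 10.2% of the cells of libraries 1 to 4, so library 3 was not low.

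Tg, Ddc and Tff1 leaned to clusters 5 and 6. Tg stood at 14.7 CPM in cluster 5, 16.4 CPM in cluster 6 and 9.28 CPM in cluster 3. Ddc was highest in cluster 5, at 10.04 CPM, with 5.91 CPM in cluster 6 and 4.77 CPM in cluster 3. Tff1 had 70 of its 102 UMIs in 10 cells of cluster 5. Agr3 lay apart from them and had 37 of its 73 UMIs in cluster 3 and 20 in cluster 6.

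**Figure D3:**
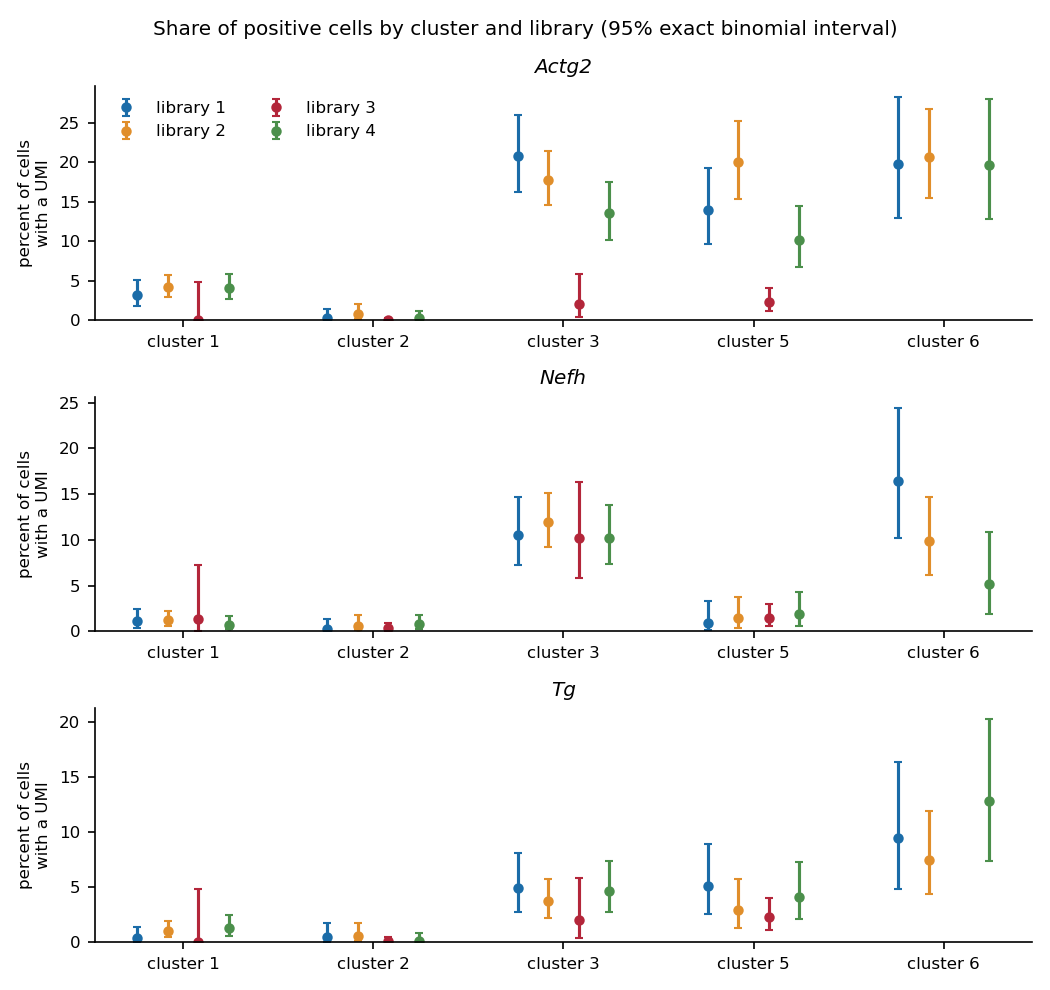
Percent of cells with at least 1 UMI (vertical axes from 0) of Actg2, Nefh and Tg in clusters 1, 2, 3, 5 and 6, by library, with exact binomial 95% intervals; groups under 20 cells are not drawn. For Actg2, library 3 lies at 2.04% in cluster 3 and 2.29% in cluster 5, below the other libraries, whereas for Nefh the 4 libraries lie between 10.2% and 11.9% in cluster 3.

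The 6 transcripts were detected together in some cells. At least 1 of them was present in 923 of the 8273 cells (11.2%), at least 2 in 173 and at least 3 in 39. Median depth was 2961 UMIs in cells with none, 5893 in cells with 1 and 9667.5 in cells with 2. To take depth into account, the number of cells with a pair was set beside the number that positive cells would have held at the rate of negative cells of the same library and depth bin.

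Actg2 and Ddc were the pair found in most cells. There were 51 cells with both, against 11.6 given by depth matching, a ratio of 4.41 (95% Poisson interval 3.28 to 5.80). Ddc was found in 9.77% of Actg2-positive cells and in 0.787% of Actg2-negative cells. By library, 16, 21, 1 and 13 cells held both, against 4.27, 5.57, 0.200 and 1.52 given. The ratio was 4.20 with cluster matched as well and 4.92 without the 5% of cells with most UMIs in each library.

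Tg was also found with these genes. It was found with Actg2 in 49 cells, against 27.0 given (ratio 1.82), with Ddc in 16 cells, against 6.41 given, and with Tff1 in 13 cells, against 1.67 given (7.79). Ddc and Tff1 met in 9 cells, against 1.16 given (7.76). Agr3 met Actg2 in 15 cells, against 7.29 given, and Tg in 9 cells, against 2.72 given. Agr3 and Tff1 met in 0 cells, against 0.854 given, a difference not detectable at this depth. With cluster matched too, the ratio was 1.61 for Actg2 with Tg, 1.97 for Tg with Ddc, 6.01 for Tg with Tff1, 6.16 for Ddc with Tff1 and 2.11 for Actg2 with Agr3.

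Nefh lay closer to the matched numbers with most partners. It met Actg2 in 46 cells, against 44.2 given, a ratio of 1.04 (0.761 to 1.39), and 0.951 with cluster matched. It met Tg in 21 cells, against 15.9 given, and Ddc in 9 cells, against 10.4 given. It met Agr3 in 5 cells, against 5.06 given. With Tff1 the number was higher, 7 cells against 3.19 given, a ratio of 2.19 (0.881 to 4.51). The pairs of 5 to 9 cells leave wide intervals.

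**Figure D4:**
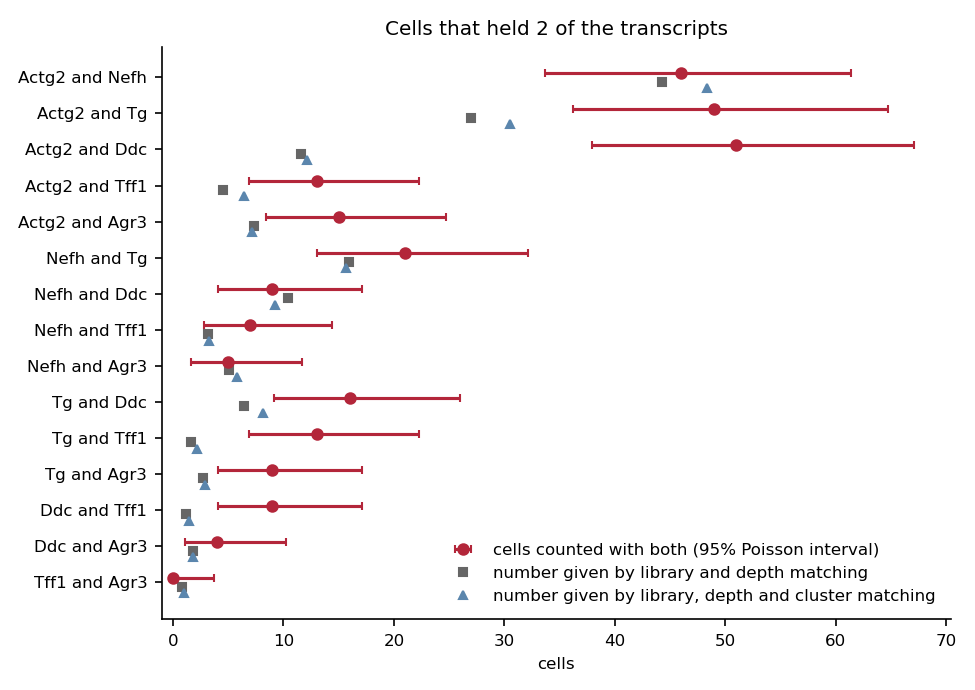
Number of cells (horizontal axis) that held both transcripts of each of the 15 pairs, with 95% Poisson intervals, beside the numbers given by matching on library and depth and by matching on cluster as well. Actg2 with Ddc was counted in 51 cells against 11.6 given, while Actg2 with Nefh was counted in 46 cells against 44.2 given.

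Another neurofilament gene was found mostly in Actg2-positive cells. Nefm, the medium chain, was rare, with 89 UMIs in 50 cells, and was singled out after its values were seen. Of the 50 cells, 33 were Actg2-positive, against 3.49 given by depth matching and 6.74 with cluster matched. Nefm was thus found in 6.32% of Actg2-positive cells and in 0.219% of Actg2-negative cells, and in 15, 21, 1 and 13 cells of libraries 1 to 4. It also met Tg in 10 cells, against 2.02 given, and Ddc in 8, against 1.43 given, but Nefh in 5, against 3.36 given. Nefl, the light chain, had 7 UMIs in all, in 4 cells that were each Actg2-positive.

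Next, all other genes were compared between the 522 Actg2-positive cells and the 7751 Actg2-negative cells. The ratio was taken within library and depth bin, so it can differ from the quotient of the plain CPM, because positive cells were deeper (median 6586.5 UMIs, against 3029 in negative cells). A gene was called when the ratio was at least 1.5-fold, its 95% counting interval left out no change, and the direction was the same in libraries 1, 2 and 4, each of which had at least 20 positive cells. Cells are not replicates, so no p-value was computed. By this rule 157 genes were higher (1.95% of 8070) and 155 lower (1.92%), with a median log2 ratio of -0.01 over all genes. With cluster matched as well, 122 were higher (1.51%) and 100 lower (1.24%), of which 107 and 81 were the same genes. In a further form every cell was thinned to 1811 UMIs, with Actg2-positive cells still defined by their counts at full depth. Of the 5927 genes left, 155 were higher and 140 lower. Only 37 and 38 of them were among the genes called at full depth. Since Actg2-positive cells are what the genes were compared on, these calls describe them and test nothing else.

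Ccl5, Xcl1 and Lgals3 were among the leading higher genes. Ccl5, a chemokine of activated lymphocytes, stood at 166 CPM in Actg2-positive cells, against 25.4 CPM in Actg2-negative cells. It was found in 37.9% of positive cells, against 4.04% of negative cells, and the matched log2 ratio was 2.32 (2.15 to 2.49), with 1.97, 2.66 and 2.27 in libraries 1, 2 and 4. Xcl1, which attracts cross-presenting dendritic cells, was found in 9.0% of positive cells, against 1.30% of negative cells, at a log2 ratio of 2.07. A single positive cell held 80 of its 256 UMIs there. Lgals3, which encodes galectin-3, had the largest ratio, 5.14-fold, and was found in 8.05% of positive cells, against 0.722% of negative cells. Its ratio with cluster matched was 3.15-fold.

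Adssl1, Tmod1, Dapl1, Nr4a2 and Itgb8 were also higher. Adssl1, the muscle isoform of adenylosuccinate synthase, was found in 21.3% of positive cells, against 1.55% of negative cells, and was 5.12-fold higher, or 4.12-fold with cluster matched. Tmod1, which caps actin filaments, was 2.88-fold higher. Dapl1 was 4.79-fold higher, at 92.0 CPM in positive cells, against 17.4 CPM in negative cells. Nr4a2, a nuclear receptor induced by antigen receptor signalling, was 3.78-fold higher and Itgb8, the integrin chain that helps to release active TGF-beta, 3.04-fold. The other higher genes of the leading 12 were C1ql3, Tmem121, Sh3bgrl2 and Tsc22d1, from 2.93-fold to 3.21-fold. All 12 were also called with cluster matched.

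Among the lower genes were several receptors. Il6ra, a receptor chain for IL-6, stood at 12.9 CPM in positive cells, against 52.3 CPM in negative cells, with a log2 ratio of -1.45. Ccr9, a receptor for the thymic and gut chemokine CCL25, stood at 12.1 CPM, against 50.6 CPM, with a log2 ratio of -1.22. Gpr83, a receptor gene typical of Treg cells, stood at 71.6 CPM, against 173 CPM, with a log2 ratio of -1.04. Nrn1, Ly6c1, D930028M14Rik, Dtx1, Nrarp, Pde3b and Entpd6 were lower with and without cluster matching, from 7 to 16 UMIs in positive cells for all but Ly6c1, which had 6. Dntt, the enzyme that adds bases at receptor junctions, had a log2 ratio of -2.62 that shrank to -0.58 and lost its call with cluster matched, and Ly6d and Itgb3 lost theirs too.

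**Figure D5:**
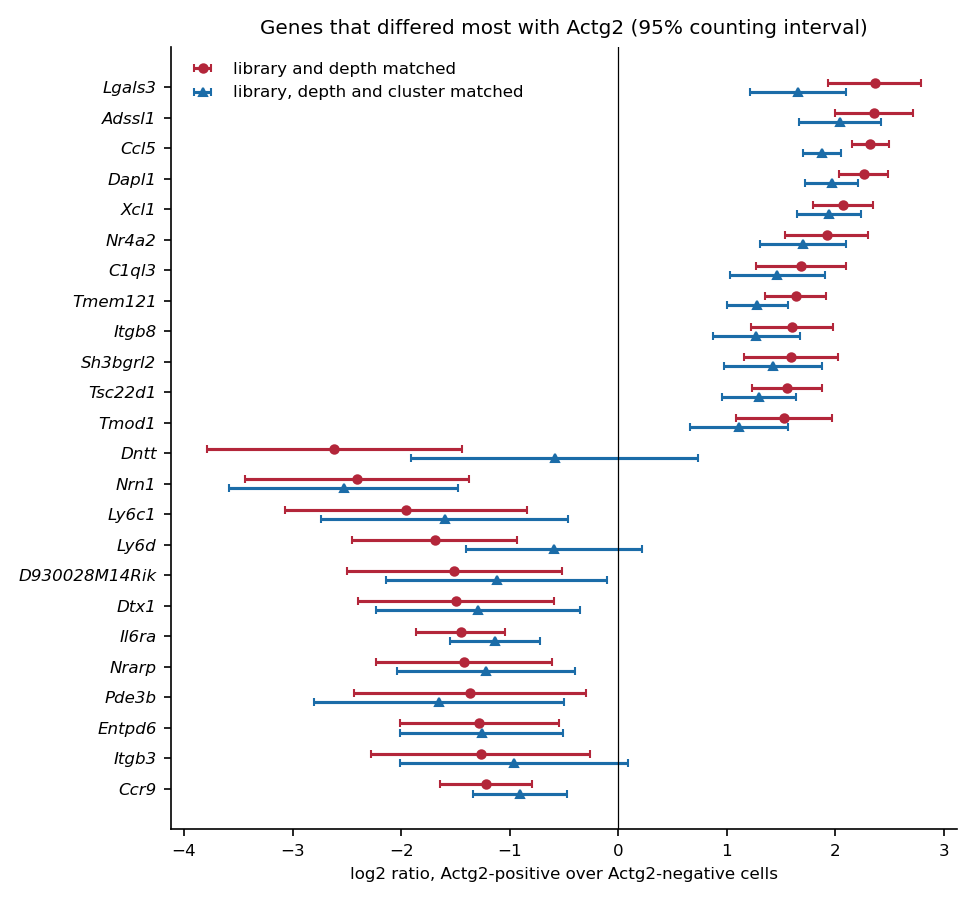
Log2 ratio of CPM between Actg2-positive and Actg2-negative cells (horizontal axis) for the 12 highest and 12 lowest called genes, with 95% counting intervals, matched on library and depth or on cluster as well. Lgals3 and Ccl5 stand at 2.36 and 2.32; with cluster matched, the intervals of Dntt, Ly6d and Itgb3 reach 0.

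Lists of marker genes were read in the same comparison. Of the 12 effector Treg genes that could be compared, 5 were higher and 0 lower, namely Lgals3, Itgb8, Lag3, Ccr6 and Itgae, and 3 remained called with cluster matched. The list's median log2 ratio was 0.59. In the Treg identity list of 16 genes, 0 were called higher and 1, Gpr83, lower, with a median of 0.00, and Foxp3 had a log2 ratio of 0.23 (-0.26 to 0.71). Of 18 genes of TCR and NF-kB signalling, 2 were higher and 2 lower. Pdcd1, the inhibitory receptor PD-1, rose 2.46-fold and was found in 43.3% of positive cells, against 9.59% of negative cells. Bcl2l11, the death-promoting protein BIM, rose 1.85-fold. Egr1 and Irf4 fell, with log2 ratios of -0.62 and -0.67.

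No gene of the 16 MYC and ribosome biogenesis genes, the 14 S phase genes or the 13 IL-2 and STAT5 genes was called in either direction. Of 11 proliferation genes, 0 were higher and 4 lower at matched depth, and none was called with cluster matched. Their summed level was nevertheless higher in positive cells, at 1245 CPM, against 673 CPM in negative cells, and 90 of the 522 positive cells lay in the proliferating-like cluster 6. Of 13 interferon genes, Gbp2 and Iigp1 were lower and 0 higher.

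Some genes listed as markers of other lymphocytes were higher with Actg2 as well. Among them, Xcl1 and Nkg7 were also leading genes of cluster 3, and Ccl5 of cluster 5, clusters in which Actg2 was high. All 3 comparable genes of the NK, NKT and gamma delta T cell list, Ccl5, Xcl1 and Nkg7, were higher with and without cluster matched. The list summed to 640 CPM in positive cells, against 137 CPM in negative cells. Across libraries 1 to 4 it summed to 272, 230, 57.5 and 180 CPM. Of its 8 genes, the gamma delta T cell genes Trdc and Tcrg-C1 were not among the names in the count table used here, so that cell type was not checked by them. Among the others, Klrd1 had 8 UMIs and Klrb1c 2, of which 0 lay in Actg2-positive cells, and Zbtb16 had 3. Cd79b of the B cell list rose 1.51-fold, while Ms4a1 had 4 UMIs. Cd74 of the antigen-presenting cell list rose 1.57-fold, a call lost with cluster matched, while Itgax, Flt3 and Siglech had 0 UMIs. The part of such cells in the result was not tested beyond these values.

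With Nefh, other genes were called. Between 257 Nefh-positive and 8016 Nefh-negative cells, 718 genes were higher (8.9% of 8070) and 596 lower (7.39%). With cluster matched the counts were 371 (4.6%) and 363 (4.5%). Against that background, 15 of the 16 MYC and ribosome biogenesis genes were higher and 0 lower, with a median log2 ratio of 1.05, and 13 remained called with cluster matched. Srm, which makes spermidine, was at 229 CPM in positive cells, against 55.7 CPM in negative cells, 2.68-fold higher at matched depth. Nolc1 and Ncl, nucleolar proteins of ribosome assembly, were 2.35-fold and 1.95-fold higher. Myc itself was not called, with a log2 ratio of 0.12 (-0.10 to 0.33).

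The largest ratio with Nefh was that of 3110082I17Rik, 1.77 on the log2 scale. Shmt1, of one-carbon metabolism, was found in 38.9% of positive cells, against 4.54% of negative cells, and was 3.30-fold higher. Noc2l, Smyd2, Smyd5 and Pus7, a pseudouridine synthase, were 2.92-fold to 3.19-fold higher. In all 4 libraries the log2 ratio of Shmt1 was above 1.5 (1.61, 1.53, 2.13 and 2.27). Of 14 S phase genes, 8 were higher, among them Mcm2, Pcna and Ung, and 2 remained with cluster matched. The proliferation list moved the other way, with 9 of 11 lower and 0 higher, in both forms of matching.

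Egress and interferon genes were lower in Nefh-positive cells. Of 13 late maturation and egress genes, 11 were lower, including Klf2 and S1pr1, and 7 with cluster matched. Of 13 interferon genes, 8 were lower, and 7 with cluster matched. Iigp1 stood at 3.62 CPM in positive cells, against 45.0 CPM in negative cells. Nr4a2, which was 3.78-fold higher with Actg2, had a log2 ratio of -2.34 with Nefh, on 5 UMIs in positive cells. Ccl5 stood at 34.0 CPM, against 43.1 CPM, and was not called because library 3 went the other way, and Actg2 had a ratio of -0.23 (-0.46 to 0.01).

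Ccl5 was higher with Tg and with Ddc as well as with Actg2. These sets share cells, since 49 Tg-positive and 51 Ddc-positive cells are Actg2-positive too, so the values stand side by side and are not independent. Between Tg-positive and Tg-negative cells, 120 genes were higher (1.49%) and 172 lower (2.13%), or 1.26% and 1.98% with cluster matched. On simulated counts for this comparison, 131 of 7870 unchanged genes (1.66%) were called, so many of these calls may be counting error. Cst7, a protease inhibitor of lymphocytes, led at 2.76-fold, a call lost with cluster matched. Ccl5 was found in 36.9% of Tg-positive cells, against 5.54% of Tg-negative cells, and was 2.33-fold higher, as was Dapl1. Il1r2, the decoy receptor for interleukin 1, was 2.46-fold higher, with 14 of its 56 UMIs there in 1 cell.

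Between Ddc-positive and Ddc-negative cells, 262 genes were higher (3.25%) and 155 lower (1.92%), or 2.58% and 1.45% with cluster matched. Tg led them, at 47.3 CPM, against 6.40 CPM, 4.33-fold higher, or 1.77 on the log2 scale with cluster matched. Ccl5 was 3.38-fold higher and Pdcd1 2.90-fold, found in 57.1% of Ddc-positive cells, against 11.1% of Ddc-negative cells. Epcam, an adhesion molecule of epithelium, was found in 21.4% of Ddc-positive cells, against 4.88% of Ddc-negative cells, and lost its call with cluster matched. Epcam was also 2.61-fold higher with Actg2.

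The 34 Tff1-positive and 47 Agr3-positive cells were too few for a direction within a library, so their counts of called genes rest on the ratio and interval alone. No simulated counts are given for these comparisons or for that of Ddc, and many of their calls may be counting error too. With Tff1, 420 genes were higher (5.2%) and 201 lower (2.49%), or 4.78% and 2.7% with cluster matched. Tg was found in 38.2% of Tff1-positive cells, against 1.88% of Tff1-negative cells, and Ccl5 in 55.9%, against 5.97%. Penk, the precursor of enkephalins, was found in 38.2%, against 4.54%. S100a6 had the largest ratio, but 50 of its 61 UMIs came from 1 cell. With Agr3, 460 genes were higher (5.7%) and 319 lower (3.95%), or 5.03% and 3.36% with cluster matched, and Gtpbp3, found in 25.5% of Agr3-positive cells, against 3.42% of Agr3-negative cells, was 4.13-fold higher.

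Other genes of the tissues in which the 6 genes are usually found were mostly at or near 0, with exceptions in the nerve and monoamine lists. Of 15 smooth muscle genes, 7 had 0 UMIs, among them Cnn1, Des and Myocd, and Acta2, Tagln and Myh11 had 1, 2 and 1 UMIs in 33232250. The list summed to 1.14 to 1.60 CPM by library, and to 0.991 CPM in Actg2-positive cells, against 1.47 CPM in Actg2-negative cells. Of 13 thyroid genes, 10 had 0 UMIs, including Tshr, Pax8 and Nkx2-1. The list had 10 UMIs in all, at 3.23 CPM in Tg-positive cells, against 0.158 CPM in Tg-negative cells. Its UMIs in Tg-positive cells were only 3 of Hhex in 1 cell and 2 of Iyd in 1 cell. Of 14 genes of secretory mucosa, 9 had 0 UMIs, including Tff2 and Agr2, the close relatives of Tff1 and Agr3. Th, Tph1 and Tph2, which make the substrates of Ddc, had 0 UMIs, but the list of 13 monoamine genes held 524 UMIs, of which 444 were Gch1, an enzyme of cofactor synthesis. The list of 12 neuron genes held 540 UMIs and summed to 14.7 to 17.0 CPM by library, mostly Tubb3 with 276, Syp with 141 and Nefm with 89. It summed to 10.4 CPM in Nefh-positive cells, against 16.7 CPM in Nefh-negative cells, and to 24.3 CPM in Actg2-positive cells, against 15.1 CPM in Actg2-negative cells. In Actg2-positive cells most of its UMIs were of Nefm (60) and Nefl (7), which were singled out above, with 20 of Tubb3 and 6 of Syp. Tubb3, the 1 gene of this list with 200 or more UMIs, had a log2 ratio of -0.25 with Actg2 and was not called.

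Markers of medullary thymic epithelium, the cells that make such transcripts in the thymus, ranged from 0 to 662 UMIs. Aire had 8 UMIs in 8 cells, 2 of them Actg2-positive, Krt5 1 UMI, and Krt14, Foxn1, Fezf2, Trp63 and Cldn3 0. The list of 16 summed to 28.9, 37.6, 60.2 and 37.2 CPM in libraries 1 to 4. It summed to 33.5 CPM in Actg2-positive cells, against 40.1 CPM in Actg2-negative cells. Most of it was Ly6d and Epcam, with 662 and 499 UMIs. The keratins Krt18, with 87 UMIs in 61 cells, and Krt8, with 31, followed. Ly6d was also a leading gene of the double-positive thymocyte-like cluster 7. It stood at 11.2, 16.3, 38.8 and 20.1 CPM in libraries 1 to 4, and Epcam at 14.6, 14.1, 17.0 and 15.3 CPM. Ly6d met Actg2 in 11 cells, against 16.6 given by depth matching and 13.6 with cluster matched. Epcam met Actg2 in 77 cells, against 31.7 and 39.9. Of 9 other genes known as products of this epithelium, 7 had 0 UMIs, Ins2, Csn2 and Crp among them.

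Over the 29 sums of a cluster in a library with at least 20 cells, the genes most like each of the 3 comparable members were found by Pearson correlation of log2(CPM + 10). The sums share libraries and depth, so the values are a description. Most like Actg2 were Apobec2 (0.87), Eno3, the muscle enolase (0.83), Adora2a (0.80), Cd83 (0.79) and Map3k8 (0.79). Most like Nefh were Nop56 (0.81), Nolc1 (0.80), Psmg2, Shmt1 and Timm13, and most like Tg were Ccl5 (0.76), Tmem237, Adssl1, Rpn2 and Mrps15. These lists rest on single libraries: leaving out 1 library at a time kept 2 to 3 of the 5 genes for Actg2 and 0 to 3 for Nefh and for Tg, with 0 kept for both without library 2 and 0 for Tg without library 3. Between the members, r was 0.52 for Actg2 and Tg, 0.33 for Actg2 and Nefh, and 0.01 for Nefh and Tg.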

How the data were processed

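The count table that the authors deposited, with UMIs of 27998 genes in 8273 cells, was used unchanged; the build was mm10, and the tools named were Cell Ranger 2.0.2, CASAVA 2.20 and R 3.4.1, according to the submitters' processing notes. No source used here gives their filter on cells. A second table of log2 values that the authors deposited, for 7231 cells named as G1, served only to mark those cells. All 8273 columns were left unassigned to a genotype, so the planned comparisons of knockout with wild type were not run. The 6 genes, the marker lists and the rules were chosen with earlier results of these data known. The genes named are, for each positive-against-negative comparison, the 12 called genes with the largest and the 12 with the smallest ratio, beside the genes of the marker lists; Nefm and Nefl were singled out after their values were seen, and genes with 3 or fewer UMIs in positive cells are given no ratio.

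CPM are summed UMIs scaled to 1000000, with exact 95% Poisson intervals; shares have exact Clopper-Pearson intervals; a count of 0 allows up to 3 counts. Ratios are Mantel-Haenszel ratios over library and 10 depth bins, with a weight-scaled continuity term of 0.5 UMIs, for genes with 200 or more UMIs. All cover counting error only. On simulated counts for the Actg2 comparison, 73 of 75 genes changed 2-fold were called, 26 of 50 changed 1.5-fold, and 57 of 7870 unchanged genes; for the Tg comparison these were 62 of 75, 19 of 50 and 131 of 7870. Clusters were made with scanpy 1.11.5 and igraph 0.11.9 from 2000 variable genes, 30 components, 15 neighbours and Leiden resolution 0.6; the 6 genes were left out. No doublet caller was run; leaving out the 5% of cells with most UMIs stands in for it. Python 3.11.15, numpy 2.4.6, scipy 1.17.1 and pandas 2.3.3 were used. Alternatives were other cell filters, scalings, depth bins, matching, thresholds, thinning and leaving out each library.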

Additional observations from a re-analysis of the deposited data

How the results depend on the processing

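The level of Actg2 over all cells, 48.0 CPM, was 72.4 CPM with mitochondrial and ribosomal protein genes left out of the totals, 39.7 without the 5% of cells with most UMIs in each library, 44.3 without proliferating-like cells and 28.0 as a mean over cells. The share of Actg2-positive cells, 6.31%, was 5.14% without the deepest cells, 5.52% without proliferating-like cells, 5.74% in the cells named as G1, 3.55% at 2 or more UMIs and 3.88% after thinning. Leaving out 1 library at a time gave 39.8 to 56.8 CPM and 4.86% to 8.15%, highest without library 3. The 3.06 UMIs per positive cell became 2.76 without the deepest cells and 2.96 to 3.09 without 1 library. Co-detection over the 15 pairs, 1.86 times the matched number with 10 depth bins, was 2.11 with 5 bins and 1.72 with 20, so it fell with finer depth matching. It was 1.71 with cluster matched, 1.72 without proliferating-like cells and 1.79 to 1.97 without 1 library.

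The 157 genes higher with Actg2 became 244 at 2 or more Actg2 UMIs, 361 with a minimum of 50 UMIs and 1018 with no minimum beyond 1 UMI, and 140 to 176 without 1 library. The 155 lower genes became 238 without the deepest cells, 240 at 2 or more Actg2 UMIs, 100 with cluster matched and 137 to 177 without 1 library. These were not all the same genes. Without 1 library, 85 to 129 of the 157 higher genes and 86 to 129 of the 155 lower genes were called again, fewest without library 2. After thinning, 37 of 155 genes called higher were shared with the 157, and 38 of 140 lower genes with the 155. Actg2 in its highest cluster, 96.5 CPM, was 83.4 at Leiden resolution 0.4 and 180.1 at 1.0. Within libraries 1, 2 and 3 it was 106, 159 and 23.7 CPM, and without 1 library 92.1 to 111. Of the 5 genes most like Actg2, 3 were kept by rank correlation and 2 to 3 without 1 library. The 12 highest and 12 lowest called genes for Actg2 were followed through these alternatives, with Epcam, Pdcd1, Nkg7, Bcl2l11, Ccr6 and Gpr83. None of them changed direction. The other called genes named for Actg2, such as Lag3, Itgae, Egr1, Irf4, Gbp2 and Iigp1, were not followed. Haemoglobin genes called lower with Tff1 and Agr3, on 0 or 1 UMIs in positive cells, turned higher with cluster matched and are given no ratio. Nefh was lowest in library 3 by plain level and highest there at equal cluster makeup. The cause of these shifts was not tested. No paired analysis was possible because the genotypes share a single replicate number and the columns carry no sample.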
